A study of Mus musculus with 227 samples.

Results

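The serotonin reuptake inhibitors of this drug screen in mouse cortical cultures were Escitalopram, Citalopram·HBr, Paroxetine·HCl, Fluoxetine·HCl, Fluvoxamine Maleate and Sertraline·HCl, and they are described here with Duloxetine·HCl, which blocks both serotonin and noradrenaline reuptake. They were chosen by the agent named in the sample label and make up 7 of the 218 drugs of the series. Each drug had 1 library, so no drug has a replicate error of its own. Each drug and the 7 together were set against the 9 libraries of cultures given vehicle (0.2% DMSO), and against the other drugs sequenced under the same run code.

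These drugs bind the serotonin transporter, the product of Slc6a4, which carries released serotonin back into serotonergic axons. The cell bodies of those axons lie in the raphe nuclei of the brainstem, and the cortex receives their fibres and holds the serotonin receptors. Escitalopram is the S-enantiomer of citalopram, which is a racemate. Paroxetine is a phenylpiperidine, sertraline an aminotetralin and fluvoxamine an oxime ether, while fluoxetine and duloxetine share an aryloxypropylamine scaffold. Drugs of the class are also known for delayed clinical action, for raising neurotrophin signalling in rodents after long treatment, and, as cationic amphiphilic molecules, for entering lysosomes.

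RNA was sequenced from cerebrocortical cultures of F1 embryos (FVB/N x C3B6F1, embryonic day 16.5) that had been kept for 21 days in vitro and then treated for 8 h. The drug groups were Escitalopram, Citalopram·HBr, Paroxetine·HCl, Fluoxetine·HCl, Fluvoxamine Maleate, Sertraline·HCl and Duloxetine·HCl, with 1 library each, and the vehicle group held 9 libraries, all from the same cross, age and treatment time. Doses are not in the sources used here, so differences between drugs are differences between libraries at doses that may not match. The labels do not say whether libraries came from separate cultures, and p-values measure only the spread between libraries, which may be technical.

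The 7 drug libraries held 28950888 to 40134120 counts and the 9 vehicles 31401522 to 43766202 counts, with 3.37 to 3.98% of counts on mitochondrial genes in the drug libraries and 3.099 to 3.91% in the vehicles. The 7 drugs came from 5 run codes, the number in the sequencing label that groups libraries. Escitalopram and Paroxetine shared run code HI.3147 with 28 other drugs and Vehicles 8 and 9. Citalopram was in HI.3146 with 20 other drugs and Vehicles 2 and 3. Fluvoxamine was in HI.3145 with 30 other drugs and Vehicle 4. Sertraline was in HI.3083 with 29 other drugs and Vehicles 6 and 7. Fluoxetine and Duloxetine were in HI.3139 with 18 other drugs and no vehicle, so for these 2 drugs a difference from vehicle and a difference between run codes cannot be told apart. Astrocyte markers summed to 6800 to 8983 CPM (read counts scaled to the size of the library) in the 7 drug libraries and 6632 to 8352 CPM in vehicle, and neuron markers to 4561 to 6088 CPM in the drug libraries and 4711 to 6551 CPM in vehicle, so both cell types of the labelled cortical culture were present. Of 6 endothelial markers Cldn5 was at 0 in these libraries. The 6 together summed to 2.39 to 4.99 CPM in the drug libraries and 2.96 to 5.69 CPM in vehicle. In bulk RNA, fewer cells of a type and less RNA per cell cannot be told apart.

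The transporter that these drugs bind was almost absent from the RNA of the cultures. Slc6a4 (11:76998603-77032340, plus strand, GRCm38, which is the assembly mm10) had 0.20 CPM with Escitalopram, 0.38 with Citalopram, 0.30 with Paroxetine, 0.20 with Fluoxetine, 0.19 with Duloxetine, 0.24 with Fluvoxamine and 0.38 with Sertraline. In Vehicles 1 to 9 it had 0.28, 0.25, 0.10, 0.26, 0.36, 0.47, 0.27, 0.55 and 0.28 CPM. The ranges overlapped, and the fitted log2 difference was -0.20 ± 0.28 (SE, unadjusted p = 0.471, edgeR). Tph2, which makes serotonin in neurons, was at 0.16 to 0.51 CPM with the drugs and 0.16 to 0.37 CPM in vehicle. The summed CPM of 5 serotonergic neuron markers was 0.51 to 1.152 with the drugs and 0.51 to 1.31 in vehicle. The noradrenaline transporter gene Slc6a2, the second target of Duloxetine, had at most 0.10 CPM with the drugs and 0.11 CPM in vehicle.

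Other genes of serotonin uptake, breakdown and reception were expressed. Per kilobase of gene length, mean levels were 23.1 with the 7 drugs and 25.8 in vehicle for Slc29a4, a low-affinity monoamine transporter. They were 11.7 with the drugs and 12.1 in vehicle for Maoa, which breaks down serotonin, and 10.9 with the drugs and 11.3 in vehicle for the receptor gene Htr2c, all as CPM per kilobase. Lower levels were those of Htr2a (4.06 with the drugs, 4.31 in vehicle), Htr3a (2.97 with the drugs, 3.30 in vehicle), Htr7 (2.45 with the drugs, 2.48 in vehicle) and Htr1a (2.05 with the drugs, 2.39 in vehicle). Slc6a4 stood far below them, at 0.097 with the drugs and 0.112 in vehicle on the same scale.

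As a group of 7, the drugs left no gene past the threshold against vehicle. In edgeR's quasi-likelihood test with Benjamini-Hochberg adjustment, 0 of 14566 genes had an adjusted p under 0.05 (0% called), and the lowest adjusted p was 0.807. An unadjusted p under 0.05 was reached by 402 genes (2.76%), 204 higher and 198 lower with the drugs. limma voom called 0 (368 unadjusted) and DESeq2 called 0 (459 unadjusted). The 95% interval of the log2 difference lay within 1 log2 unit of 0 for 97.2% of genes tested.

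The genes with the lowest p that lay to one side of the mean vehicle level in all 7 drugs differed by little. Shisa8, which encodes an AMPA receptor auxiliary protein, averaged 2.985 ± 0.47 CPM with the drugs and 2.32 ± 0.26 CPM in vehicle (SD, 7 and 9 libraries), a log2 difference of 0.37 ± 0.10 (SE). The drug range of 2.403 to 3.74 CPM overlapped the vehicle range of 1.89 to 2.61 CPM. Ptma, which encodes the nuclear protein prothymosin alpha, averaged 22.0 ± 1.5 CPM with the drugs and 19.3 ± 1.6 CPM in vehicle. Dcp1b, an mRNA decapping cofactor, Cenpt, a centromere protein, and Zfp59 were also higher, by 0.17, 0.15 and 0.32 log2 units. Among the lower genes, Rbm34 averaged 26.4 ± 0.53 CPM with the drugs and 28.2 ± 0.80 CPM in vehicle, and Mcts1, a translation factor, differed by -0.12 ± 0.04. Gnpnat1, an enzyme of the hexosamine pathway, and Upp2, a uridine phosphorylase, differed by -0.18 and -0.31 log2 units. Every one of these had an adjusted p of 0.807.

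Of the 14566 genes 1 separated the groups without overlap, and whether that is more than no difference would give was not tested. Crybb3, known for encoding a lens crystallin, had 0.288 to 0.570 CPM in the 7 drug libraries and 0.105 to 0.275 CPM in the 9 vehicles, with a log2 difference of 1.03 ± 0.22. It was named after its values were seen, and against other drugs of the run its difference was 0.37 ± 0.17. No gene lay below all vehicles in all 7 drug libraries.

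Against the other drugs of the same run code, the 7 drugs again left no gene past the threshold. Of 15362 genes, 0 were called (0%), and 671 had an unadjusted p under 0.05, 260 higher (1.69%) and 411 lower (2.68%). The lowest adjusted p was 0.709, for Pomc. limma voom called 0 (670 unadjusted) and DESeq2 with run code as a term called 0 (676 unadjusted). Pomc, the precursor of melanocortins and an opioid peptide, had 0.478 to 0.780 CPM with the drugs and 0.289 to 0.509 CPM in vehicle. Its log2 difference was 0.57 ± 0.14 against other drugs of the run, and it was named after its values were seen. Among genes whose mean CPM was at least 1 and whose 7 drug values lay on one side, those with the lowest p were Cetn3 (-0.11 ± 0.03), Mcts1 (-0.10 ± 0.03), Upp2 (-0.30 ± 0.09) and Ocln (-0.42 ± 0.14) on the lower side. On the higher side they were Usp42, Tars2, Enthd2, Eif3j2 and Hmgb1, at 0.08 to 0.17 log2 units. Mcts1 and Upp2 were named by the same rule against vehicle, although the 7 drug libraries are the same in both comparisons. Against 5 tricyclic antidepressants, an older class of monoamine reuptake inhibitors, 0 of 15621 genes were called (0%), with 541 (3.46%) at an unadjusted p under 0.05.

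**Figure D1:**
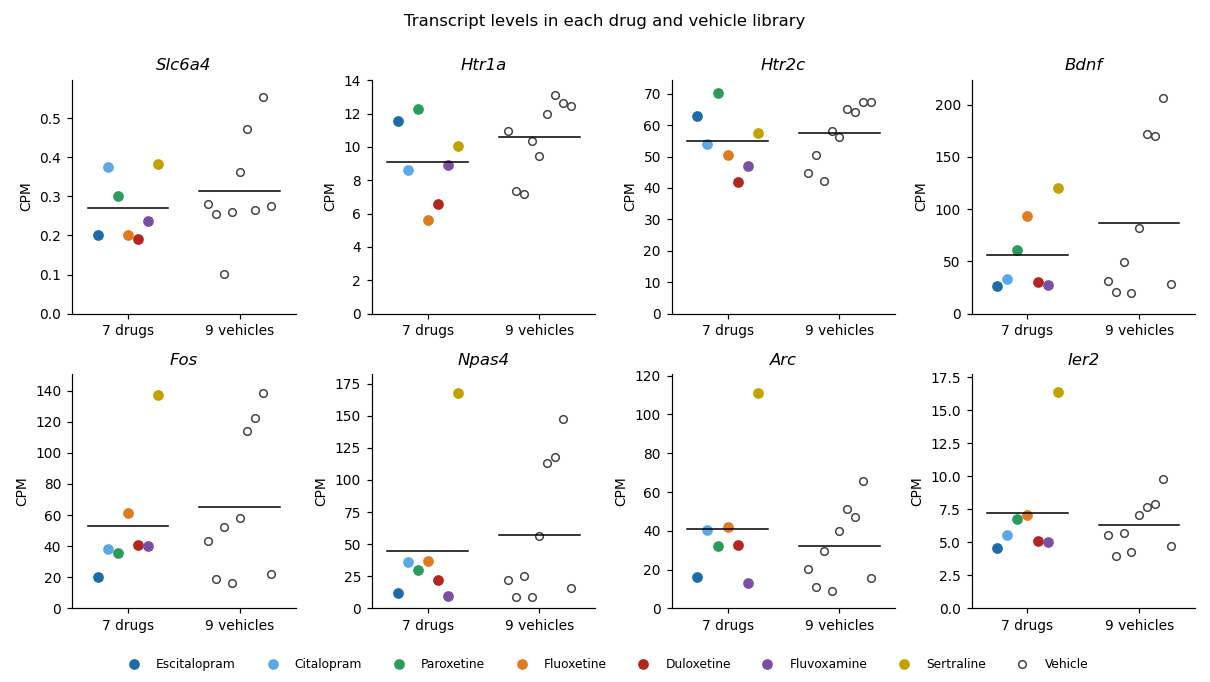
CPM of 8 genes in each of the 7 drug libraries (left of each panel, coloured by drug) and the 9 vehicle libraries (open circles), where the line marks each group's mean. Slc6a4 stays below 0.6 CPM in each library shown, Htr1a is lowest with Fluoxetine and Duloxetine, and Sertraline is the highest drug library for Bdnf, Fos, Npas4, Arc and Ier2 while several vehicles reach similar levels of Bdnf, Fos and Npas4.

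No serotonin receptor gene passed the test in the 7 drugs together. Of 14 receptor genes 11 were tested against vehicle, and 10 had a difference below 0 and 1 above, with a median of -0.084 log2 beside a median of 0.00 over all genes. Against other drugs of the run, 10 of 12 tested were below 0 (median -0.061, beside -0.002 over all genes). Htr1a (13:105443639-105448122, plus strand), which encodes an inhibitory receptor, had 11.6 CPM with Escitalopram, 8.61 with Citalopram, 12.3 with Paroxetine, 5.61 with Fluoxetine, 6.59 with Duloxetine, 8.92 with Fluvoxamine and 10.1 with Sertraline. In Vehicles 1 to 9 it had 10.9, 7.36, 7.15, 10.4, 9.46, 11.98, 13.1, 12.6 and 12.4 CPM. Fluoxetine and Duloxetine were below each of the 9 vehicles, and the other 5 drugs lay within their range.

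Htr2c (X:146962513-147197277, plus strand), a receptor of excitatory neurons and the choroid plexus, had 62.8 CPM with Escitalopram, 53.9 with Citalopram, 70.2 with Paroxetine, 50.5 with Fluoxetine, 42.1 with Duloxetine, 47.1 with Fluvoxamine and 57.5 with Sertraline. The vehicles had 44.9, 50.6, 42.3, 58.3, 56.2, 65.1, 64.2, 67.3 and 67.3 CPM. Duloxetine was just below the lowest vehicle and Paroxetine above the highest. Htr2a, the receptor bound by psychedelics, had 9.57 to 14.5 CPM with the drugs and 10.6 to 15.6 CPM in vehicle. Of 10 tested genes of serotonin transport, synthesis and breakdown, 9 were below 0 against vehicle, with a median of -0.14, and 0 passed. Maoa had 44.8 to 52.1 CPM with the drugs and 47.1 to 53.9 CPM in vehicle.

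Neurotrophin genes varied widely among the vehicles themselves, and no member of the list passed. Bdnf (2:109674700-109727007, plus strand), the growth factor most often tied to antidepressants, had 26.4 CPM with Escitalopram, 32.9 with Citalopram, 60.9 with Paroxetine, 93.2 with Fluoxetine, 30.3 with Duloxetine, 27.6 with Fluvoxamine and 120 with Sertraline. In Vehicles 1 to 9 it had 31.1, 20.8, 49.7, 19.9, 81.4, 172, 170, 206 and 28.6 CPM. The drug range fell inside the vehicle range, and the log2 difference was -0.62 (unadjusted p = 0.272, edgeR). Ntrk2, the receptor of Bdnf, had 2519 to 3640 CPM with the drugs and 2313 to 3414 CPM in vehicle. Of 14 tested genes of the neurotrophin and growth factor list, 0 passed, 3 were above 0 and 11 below (median -0.14).

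Activity-regulated genes, which neurons switch on after calcium entry, spread as widely. Of 25 genes 19 were below 0 against vehicle (median -0.28) but 12 above and 13 below against other drugs of the run (median -0.004), and 0 passed in either. Npas4 had 12.3 CPM with Escitalopram, 36.1 with Citalopram, 29.5 with Paroxetine, 37.3 with Fluoxetine, 22.5 with Duloxetine, 9.83 with Fluvoxamine and 167 with Sertraline. In Vehicles 1 to 9 it had 21.7, 8.91, 24.9, 8.69, 56.1, 113, 118, 147 and 15.6 CPM. Sertraline stood above the other 6 drugs and above each vehicle, and the vehicles of its own run code, 6 and 7, were among the higher ones.

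Sertraline held the highest value of its run code for several of these genes. Arc, which regulates AMPA receptor traffic, had 111 CPM with Sertraline, against 4.55 to 94.5 CPM in the 29 other drugs of run code HI.3083 and 51.3 and 47.2 CPM in Vehicles 6 and 7. Egr1 had 251 CPM with Sertraline, against 24.1 to 222 CPM in the other drugs. Btg2 had 45.4 CPM with Sertraline, against 24.1 to 40.0 CPM in the other drugs of the run and 27.5 to 33.6 CPM over the 9 vehicles. Ier2 had 16.4 CPM with Sertraline, against 3.53 to 10.47 CPM in the other drugs of the run and 3.96 to 9.82 CPM in the vehicles. Fos at 137 CPM was above 26 of the 29 other drugs, and Bdnf above 25. Within the run the log2 differences were 1.58 ± 0.83 for Arc, 1.21 ± 0.63 for Egr1 and 1.31 ± 0.41 for Ier2, each with an adjusted p of 1.0 in edgeR. The score of the activity list, the mean log2 CPM of its members relative to the vehicle mean, was 1.06 for Sertraline, and 0.05 above the mean of Vehicles 6 and 7. When Sertraline was set against these 2 vehicles alone, a fit added after the data had been seen, Arc was the 1 gene called, with a log2 difference of 1.177 ± 0.09 (edgeR adjusted p = 0.0261), from a spread estimated between only those 2 vehicles.

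**Figure D2:**
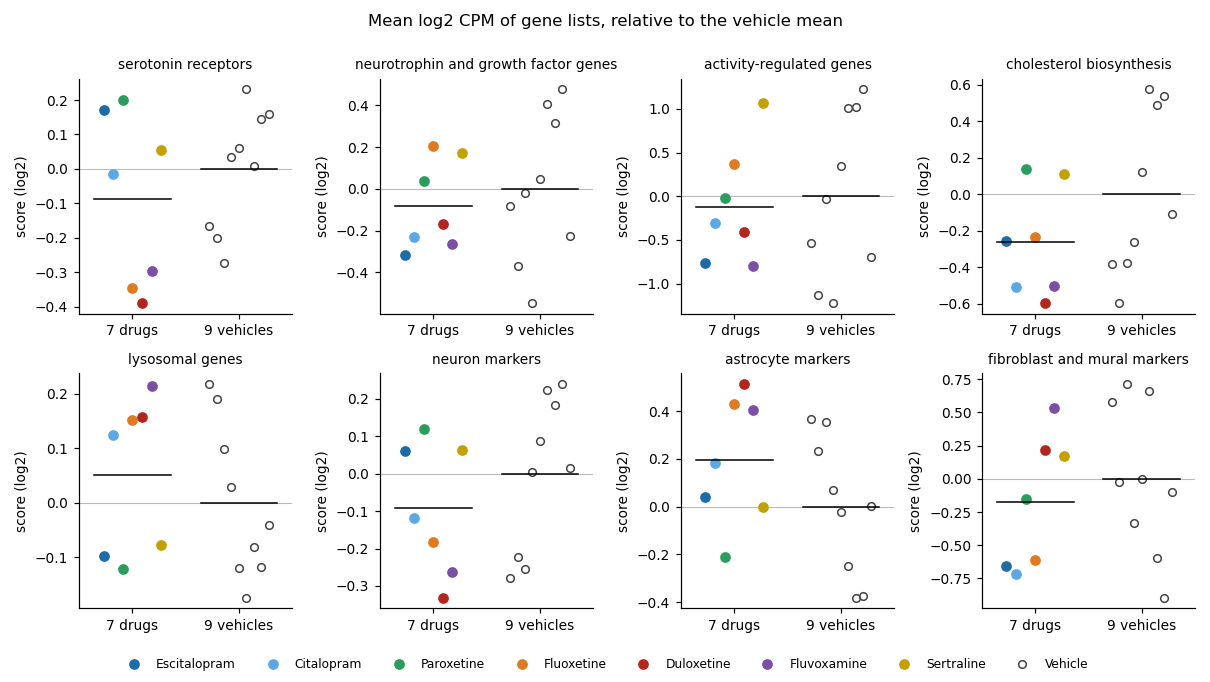
Scores of 8 gene lists (mean log2 CPM of list members relative to the vehicle mean) in the 7 drug libraries (left of each panel, coloured by drug) and in the 9 vehicles (open circles), where the line marks each group's mean. Duloxetine and Fluoxetine have the lowest serotonin receptor scores (-0.39 and -0.34) and the highest astrocyte scores (0.51 and 0.43), and the vehicles alone span -1.22 to 1.23 for activity-regulated genes.

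No metabolic list held a gene that passed in the 7 drugs together. Each of the 24 tested genes of cholesterol biosynthesis was below 0 against vehicle (median -0.30) and against other drugs of the run (median -0.20), yet 0 passed and 0 had an unadjusted p under 0.05 in either comparison. Hypoxia response genes had 11 of 11 below 0 against vehicle (median -0.42) and 12 of 12 against other drugs (median -0.21). Among them Car9, a carbonic anhydrase, and Ndrg1 had log2 differences of -1.51 and -0.46 against other drugs with unadjusted p under 0.05, and adjusted p of 0.709. Car9 had a mean CPM under 1, so its difference rests on few counts. Relative to the median of the other drugs of the run, the cholesterol score was above 0 in 3 of 7 drugs. These were Paroxetine (0.14), Fluvoxamine (0.08) and Sertraline (0.05), and Duloxetine was lowest (-0.68). The hypoxia score was also above 0 in 3 of 7, Fluvoxamine (0.45), Paroxetine (0.15) and Sertraline (0.08), with Duloxetine lowest (-0.98). Lysosomal genes had 17 of 28 above 0 against vehicle (median 0.030) and ATF4 stress genes 9 of 17 (median 0.024). Astrocyte markers had 8 of 9 above 0 (median 0.17) and neuron markers 8 of 8 below (median -0.086) in the same comparison, and the part of these cell types in the other lists was not tested.

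In run code HI.3139, 3 of the 18 other drugs lay farther from the rest of the run than Fluoxetine, and none farther than Duloxetine. Fluoxetine and Duloxetine, both in that run code, were the 2 of the 7 drugs that lay farthest from the rest of their run. When they were set together against the 18 other drugs of that run code, a comparison added after the data had been seen, edgeR called 1167 of 14911 genes (7.83%), 268 higher (1.8%) and 899 lower (6.03%) with the 2 drugs. The lowest adjusted p was 0.0203, and 5409 genes (36.3%) had an unadjusted p under 0.05. The distance of these 2 libraries from their run was known by then, and 2 different drugs stood as replicates. Calls were therefore likely in advance, and the p-values of this comparison describe these 2 libraries and are no test of a drug effect. The calls rest on 2 libraries: with Fluoxetine or Duloxetine left out, 0 genes were called (3901 and 1715 at an unadjusted p under 0.05). With no filter on low counts edgeR called 213, 20 higher and 193 lower, limma voom called 1758, 689 higher and 1069 lower, and DESeq2 called 2558, 885 higher and 1673 lower. With the spread taken from all 5 run codes, edgeR called 1897, 925 higher and 972 lower, of which 828 were among the 1167, each with the same sign. The share of calls that were higher was 23.0% with the run's own spread and 48.8% with that of all 5 run codes.

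Some serotonin receptor genes fell in these 2 libraries. Of 12 tested, 5 fell, 0 rose and 12 had a log2 difference below 0 (median -0.42, beside -0.006 over all genes, of which 6.03% were called lower). With the spread of all 5 run codes 2 of these 5 were called, Htr1a and Htr6. Htr1a had 5.61 CPM with Fluoxetine and 6.59 with Duloxetine, against a lowest of 7.96, a median of 12.2 and a highest of 15.5 CPM in the 18 other drugs. Both lay below all 18, and the log2 difference was -1.01 ± 0.20 (SE, edgeR adjusted p = 0.0252). Htr5a, a receptor coupled to inhibitory G proteins, had 3.495 CPM with Fluoxetine and 3.675 CPM with Duloxetine. The other drugs had 4.77 to 7.79 CPM, a difference of -0.84 ± 0.13 (edgeR adjusted p = 0.0203). Both libraries lay within the vehicle range of Htr5a, 3.35 to 7.45 CPM. Htr6 had 2.42 CPM with Fluoxetine and 2.82 CPM with Duloxetine, against 3.22 to 5.1638 CPM in the other drugs, and Htr3a, the subunit of the ion channel receptor, had 4.67 CPM with Fluoxetine and 4.943 CPM with Duloxetine, against 5.57 to 9.74 CPM in them. Htr2c fell by 0.49 ± 0.15 log2 units, with 50.5 CPM for Fluoxetine and 42.1 CPM for Duloxetine, against 46.0 to 74.5 CPM in the other drugs, so that Fluoxetine overlapped the other drugs. Htr2a did not pass, and its 2 libraries stood apart, with 14.5 CPM for Fluoxetine and 9.57 CPM for Duloxetine. The other drugs had 10.4 to 17.4 CPM of Htr2a. The 2 libraries stood apart for Htr7 and Htr1b as well. Fluoxetine was above 17 of the 18 other drugs for Htr7 and above 12 for Htr1b. Duloxetine was above 1 for Htr7 and above 2 for Htr1b. A log2 difference below 0 for the pair is therefore not always a fall in each library.

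Several excitatory and general neuron markers fell in the same libraries, where 6.03% of all genes tested were called lower and 1.8% higher. Of 7 excitatory neuron markers 4 fell and none of the 7 was above 0. With the spread of all 5 run codes 1 of the 4 was called, Tbr1. Slc17a7, the vesicular glutamate transporter, had 554 CPM with Fluoxetine and 456 with Duloxetine, against 589 to 944 CPM in the 18 other drugs. Camk2a had 694 CPM with Fluoxetine and 682 with Duloxetine, against 810 to 1245 CPM in the other drugs, and Tbr1 and Nrgn fell by 0.67 and 0.53 log2 units. Of 8 general neuron markers 3 fell, among them Rbfox3, which encodes NeuN, with 131 CPM for Fluoxetine and 125 for Duloxetine, against 142 to 197 CPM in the other drugs. With the spread of all 5 run codes Stmn2 was the 1 general neuron marker called, and with no filter on low counts none of the 8 was. Inhibitory neuron markers went both ways, as Sst rose by 0.32 ± 0.10 and Vip fell by 0.76 ± 0.22 log2 units. Vip was the only one of the 8 whose CPM was below the median of the 18 other drugs in both libraries. Sst, Npy, Pvalb, Calb2 and Gad1 were above it in both, and Gad2 and Slc32a1 with Fluoxetine only. Of 9 astrocyte markers 1 passed, Aldh1l1, which rose by 0.26 ± 0.07, and 8 were above 0 (median 0.60). These calls changed with the test: the spread of all 5 run codes called 4 as higher (Gfap, S100b, Slc1a3 and Sox9) and not Aldh1l1, DESeq2 called 3 (Aldh1l1, S100b and Sox9), and no filter on low counts called 0. Gfap had 911 CPM with Fluoxetine and 1159 with Duloxetine, against 199 to 974 CPM in the other drugs, with a log2 difference of 1.05 ± 0.42 (edgeR adjusted p = 0.088). The part of the neuron to astrocyte balance in the fall of the receptor genes was not tested. The 9 vehicles had 409 to 964 CPM of Slc17a7 and 635 to 1233 CPM of Camk2a, so both drugs lay within their range. Both also lay within the vehicle ranges of Rbfox3 (113 to 211 CPM), Nrgn (138 to 286 CPM) and Aldh1l1 (133 to 186 CPM). Stmn2 and Snap25 lay below their vehicle ranges with Duloxetine and within them with Fluoxetine. Tbr1, at 53.5 CPM with Fluoxetine and 52.2 CPM with Duloxetine, lay below the vehicle range of 61.9 to 107 CPM. Gja1, at 760 CPM with Fluoxetine and 861 CPM with Duloxetine, lay above the vehicle range of 266 to 719 CPM, and Gfap with Duloxetine was above the highest vehicle, at 982 CPM.

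**Figure D3:**
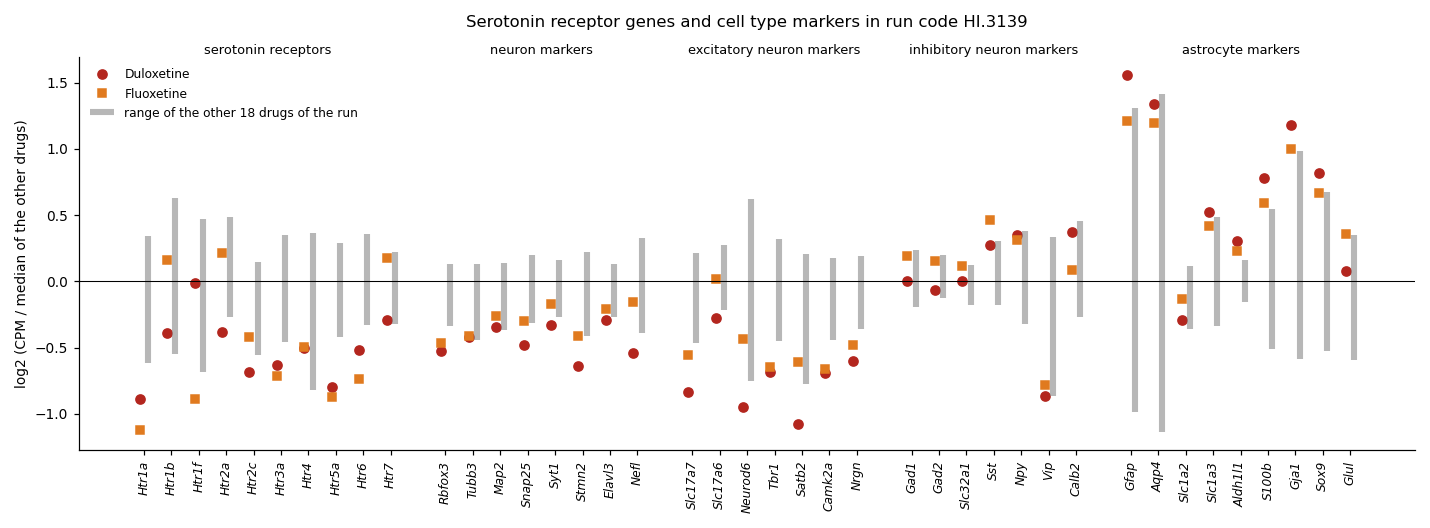
CPM with Duloxetine (circles) and Fluoxetine (squares) on a log2 scale relative to the median of the 18 other drugs of run code HI.3139, whose range is the grey bar, for serotonin receptor genes and markers of neurons and astrocytes with a median CPM of 1 or more. Htr1a, Htr3a, Htr5a and Htr6 of both drugs lie under the range of the other drugs, as do Rbfox3, Slc17a7, Tbr1 and Camk2a, while Gja1 of both lies over it.

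Of 8 microglial markers 4 were tested and 2 passed: Csf1r, the receptor of a colony stimulating factor, fell by 1.508 ± 0.35 log2 units and Aif1 fell by 0.70 ± 0.20. P2ry12 was above 0 and did not pass (0.61 ± 0.67), and Cx3cr1 was below 0 and did not pass. Csf1r had 0.57 CPM with Fluoxetine and 0.16 CPM with Duloxetine, against 0.67 to 1.519 CPM in the other drugs, so these differences rest on few counts. Glutamate and GABA receptor subunits had 4 of 15 lower past the threshold (Gria2, Gria3, Grm5 and Gabrb2, falling by 0.34 to 0.53 log2 units) and 15 of 15 below 0 (median -0.39). Among 12 genes of other proteins that these drugs bind, the background potassium channel Kcnk2 rose by 0.79 ± 0.24. The purinergic receptor P2rx4 rose by 0.48 ± 0.13, and the muscarinic receptor Chrm3 fell by 0.42 ± 0.13. Kcnk2 had 108 CPM with Fluoxetine and 117 CPM with Duloxetine, against 44.1 to 103 CPM in the 18 other drugs. Of 8 adrenergic receptor genes, Adra2c fell by 0.48 ± 0.15 (edgeR adjusted p = 0.0499). Beside the calls in these lists, 6.03% of all genes tested were called lower and 1.8% higher.

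Lists of metabolic genes held 0 to 3 calls each, beside 7.83% of all genes called. Of 11 hypoxia response genes 3 fell, Ndrg1, Bnip3 and the pyruvate dehydrogenase kinase Pdk1, by 1.06, 0.84 and 0.61 log2 units, and all 11 were below 0. Pdk1 had 103 CPM with Fluoxetine and 75.4 with Duloxetine, against 109 to 158 CPM in the other drugs. Of 9 LXR target genes 2 rose, the lipoprotein gene Apoe and Lpcat3, and Lpl fell. Apoe, which astrocytes secrete, had 3284 CPM with Fluoxetine and 3278 with Duloxetine, against 1310 to 2980 CPM in the other drugs. Lysosomal genes had 22 of 28 above 0 (median 0.21) but 1 call, the acid ceramidase gene Asah1, which rose by 0.31 ± 0.08. Cholesterol biosynthesis had 24 of 24 below 0 (median -0.54), 10 with an unadjusted p under 0.05 and 0 called, and the activity-regulated list had 0 of 25 called.

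By size, the named rises were led by Mfsd7c (1.31 ± 0.39), a transporter gene, Rdh5 (1.245 ± 0.38), a retinol dehydrogenase, and Ppfibp2 (1.23 ± 0.30). Ppfibp2 had 7.63 CPM with Fluoxetine and 9.19 with Duloxetine, against 2.05 to 6.56 CPM in the other drugs. Mvp, the major vault protein, Prodh, which degrades proline, and Ass1, an enzyme of arginine synthesis, rose by 1.01, 0.97 and 0.91 log2 units. The falls were led by Smoc2 (-1.51 ± 0.26), Csf1r, Bhlhe22 (-1.33 ± 0.31), a transcription factor of cortical neurons, Figf (-1.24 ± 0.20), a growth factor gene, and Ntsr1 (-1.19 ± 0.22), a neurotensin receptor. Figf had 6.385 CPM with Fluoxetine and 6.02 with Duloxetine, against 9.72 to 19.3 CPM in the other drugs, and Ntsr1 had 14.5 CPM with Fluoxetine and 15.7 with Duloxetine, against 23.5 to 46.8 CPM. In each of these 2 genes both drugs lay below all 18 others.

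Each drug was also compared alone, with the spread of the other libraries standing for its own. Against vehicle, 0 genes were called for each of the 7 drugs in edgeR (0%). At an unadjusted p under 0.05 there were between 96 genes for Paroxetine (0.623%) and 936 for Duloxetine (6.08%), and Fluoxetine had 556 (3.61%). DESeq2 called 1 gene for Escitalopram (Leng8), 3 for Duloxetine (Phf21b, Rasa3 and Fam102a), 1 for Sertraline (Btg2) and 0 for the other 4 drugs.

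Against other drugs of the run, with 15988 genes tested, the unadjusted counts were 240 for Escitalopram (1.5%), 226 for Citalopram (1.41%), 117 for Paroxetine (0.732%), 204 for Fluvoxamine (1.28%) and 203 for Sertraline (1.27%). They were 1725 for Fluoxetine (10.8%, 719 higher and 1006 lower) and 4080 for Duloxetine (25.5%, 2252 higher and 1828 lower). In these fits, which take their spread from all 5 run codes, 0 genes were called for 6 of the 7 drugs, with lowest adjusted p of 0.454 for Fluoxetine and 0.156 for Duloxetine. Sertraline had 1 call (0.00625%).

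That call was Mmp13 (9:7272514-7283331, plus strand), which encodes a collagenase. It had 15 counts or 0.48 CPM with Sertraline, against 0 to 0.11 CPM in the 29 other drugs of the run and 0 to 0.10 CPM in the vehicles, and 0.21 CPM was the highest in any other library. Its log2 difference was 3.59 ± 0.63 (edgeR adjusted p = 0.00146), and against vehicle it was 3.52 ± 0.77 with an adjusted p of 1.0. Its mean CPM was under 1, so it falls outside the rule for named genes and was named after its values were seen. The other Sertraline genes were Ier2 and Btg2 (1.39 and 0.61 log2 above vehicle), Usmg5 (0.71 above other drugs of the run) and Kcnh5, a potassium channel gene (-0.57 against vehicle), which did not pass in edgeR, while DESeq2 called Btg2 against vehicle.

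The genes with the lowest p in the remaining drugs did not pass in edgeR either, and were picked for their values in that drug. DESeq2 called Phf21b for Duloxetine and Leng8 for Escitalopram against vehicle, and limma voom called Phf21b and Olfml3 for Duloxetine within its run. Duloxetine had Phf21b at 12.8 CPM, against 3.81 to 8.99 CPM in the other drugs of the run and 5.74 to 7.88 CPM in vehicle, and Olfml3 at 2.50 CPM against 0.54 to 1.57 CPM in the run. Their log2 differences within the run were 0.96 ± 0.23 and 1.59 ± 0.37, and Samd12 and Cryzl1 were lower by -0.70 and -0.23. Fluoxetine had Cort, a neuropeptide of interneurons, at 12.9 CPM against 4.24 to 9.99 CPM in vehicle, with 1.06 ± 0.28 within the run. Wif1, a secreted Wnt inhibitor, was at 7.63 CPM with Fluoxetine against 3.06 to 6.65 CPM in vehicle. Susd2 and Gpank1 were lower within the run (-0.94 and -0.72), and Creg2 and Slc24a4 lower against vehicle (-0.62 and -0.73).

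Paroxetine had Acta2 at 6.66 CPM and Ltbp2 at 3.168 CPM, genes of contractile and matrix-forming cells, with log2 differences of 3.07 ± 0.99 and 2.47 ± 0.78 against other drugs of the run. The vehicles had 0.12 to 8.04 CPM of Acta2, so the Paroxetine value lay within their range. Ankrd55 was at 1.91 CPM with Paroxetine against 0.79 to 1.247 CPM in vehicle. Fluvoxamine had Tacc3 at 14.2 CPM against 9.47 to 11.6 CPM in vehicle, and Fam72a (2.37 CPM), Grin2d (-0.33 log2 within the run) and the cartilage collagen Col2a1 (-0.76) were named as well. Escitalopram had Ppp2r3c, a phosphatase regulatory subunit, at 13.9 CPM against 16.9 to 19.99 CPM in vehicle, with -0.33 ± 0.08 within the run (edgeR adjusted p = 0.915). Leng8 was 0.33 log2 above vehicle and Grip2 0.30 above the other drugs of the run. Citalopram had Ppid and Ppp1r35 at 0.20 and -0.35 log2 within the run, and Rasl10a and Haus3 at 1.112 and -0.51 against vehicle.

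**Figure D4:**
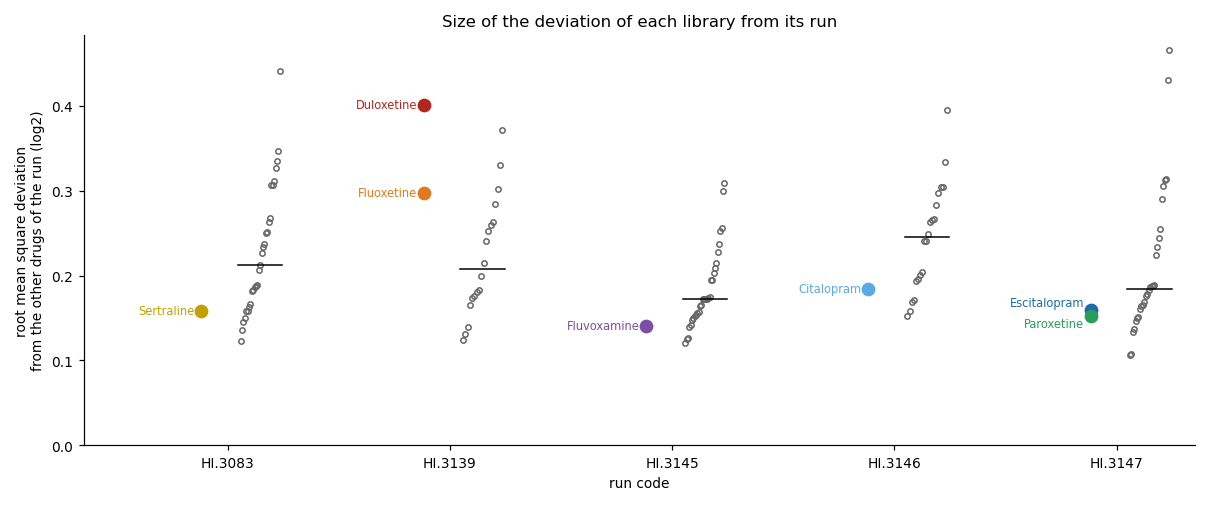
Root mean square log2 deviation from the other drugs of the run over 13023 genes, for each of the 7 drugs (coloured, left in each run code) and for each other drug (open circles, line at their median). Duloxetine at 0.401 lies above the 18 other drugs of run code HI.3139, Fluoxetine at 0.297 below 3 of them, and the other 5 drugs lie under the median of their run.

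Over all expressed genes, Duloxetine was the drug farthest from the rest of its run. Its root mean square log2 deviation over 13023 genes with a mean CPM of 1 or more was 0.401, against 0.125 to 0.372 (median 0.207) for the 18 other drugs of run code HI.3139. Fluoxetine had 0.297, with 3 of the 18 larger. Citalopram had 0.184, Escitalopram 0.159, Sertraline 0.158, Paroxetine 0.152 and Fluvoxamine 0.140, each under the median of the other drugs in its run. A deviation past 1 log2 unit was seen in 373 genes for Duloxetine (2.86%), 101 for Fluoxetine (0.776%), 35 for Citalopram, 30 for Sertraline, 15 for Escitalopram, 14 for Fluvoxamine and 7 for Paroxetine.

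By list scores too, Duloxetine and Fluoxetine were most often outside the range of their run. Of 25 lists, Duloxetine lay outside the range of the other drugs of its run in 10, 7 below and 3 above, and Fluoxetine in 5. Escitalopram, Citalopram and Fluvoxamine lay outside in 1 list each, and Paroxetine and Sertraline in none of the 25. For serotonin receptors the scores were -0.39 for Duloxetine and -0.34 for Fluoxetine, against -0.19 to 0.30 in the other drugs of the run and -0.27 to 0.23 in vehicle. For lysosomal genes they were 0.16 for Duloxetine and 0.15 for Fluoxetine, against -0.21 to 0.09 in the other drugs and -0.17 to 0.22 in vehicle, so both lay inside the vehicle range. For excitatory neuron markers they were -0.57 for Duloxetine and -0.32 for Fluoxetine, against -0.30 to 0.36 in the other drugs and -0.47 to 0.35 in vehicle. For astrocyte markers they were 0.51 for Duloxetine and 0.43 for Fluoxetine, against -0.65 to 0.37 in the other drugs and -0.38 to 0.37 in vehicle. Other drugs reached further than both in each of the other run codes described here. Their lowest serotonin receptor score was -0.57 in HI.3147, -0.58 in HI.3146, -0.89 in HI.3145 and -0.67 in HI.3083. In the same order, their lowest excitatory scores were -0.87, -0.86, -1.08 and -0.71, and their highest astrocyte scores 0.62, 0.52, 0.56 and 0.60. Of the 2 drugs, Duloxetine alone lay outside the other drugs of the run for hypoxia response (-0.77, against -0.32 to 0.58) and cholesterol biosynthesis (-0.595, against -0.55 to 0.76). In vehicle these scores spanned -1.18 to 0.72 and -0.593 to 0.57, so Duloxetine was inside the first range and just below the second.

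The 7 drugs form 21 pairs, and in none of the 21 did a gene pass the threshold in edgeR (0% called), with p adjusted within a pair or over all pairs. Escitalopram minus Citalopram, an enantiomer against its racemate, had 135 of 15988 genes at an unadjusted p under 0.05 (0.844%). The 95% interval of the difference lay within 1 log2 unit of 0 for 70.4% of genes, with a median of 0.487 on either side of the estimate, so larger differences were not bounded for the rest. All 25 list score differences of this pair had intervals that included 0. For serotonin receptors it was 0.03 (-0.61 to 0.67), for activity-regulated genes -0.11 (-2.17 to 1.94) and for fibroblast and mural markers 0.63 (-0.43 to 1.68).

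Duloxetine minus Fluoxetine, which share a scaffold and a run code, had 238 genes at an unadjusted p under 0.05 (1.49%), and 68.0% of intervals lay within 1 log2 unit of 0. Its list score interval excluded 0 for 1 of 25 lists, the genes of other binding partners (-0.17, -0.33 to -0.00), and for microglia markers it was -0.94 (-1.94 to 0.05). Escitalopram minus Paroxetine, also within 1 run code, had 186 genes and no list with an interval that excluded 0. Paroxetine minus Duloxetine had most unadjusted genes among the 21 pairs, 2721 (17.0%), and 6 lists whose interval excluded 0. Its astrocyte difference was -0.82 (-1.52 to -0.13) and its excitatory neuron difference 0.83 (0.03 to 1.622). Over all pairs and lists, 20 of 525 intervals excluded 0 (3.81%), 15 of them in pairs with Duloxetine, and these intervals were not adjusted for their number.

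**Figure D5:**
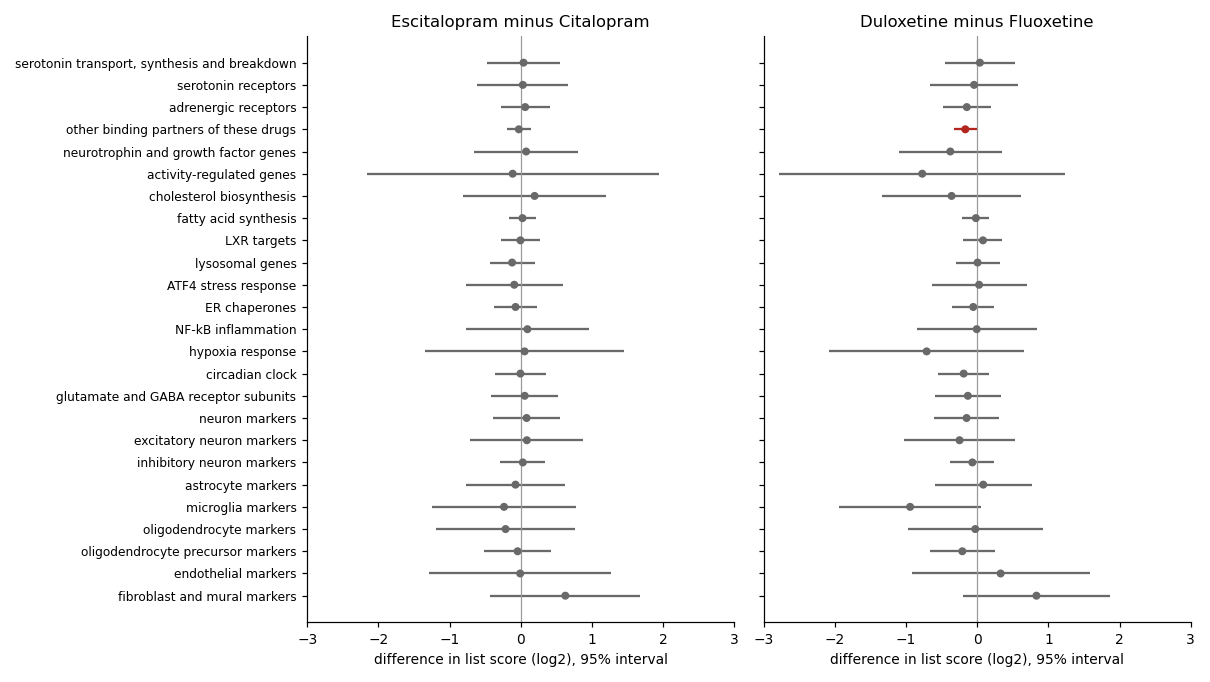
Differences in list score (log2) with 95% intervals for 25 gene lists, for Escitalopram minus Citalopram on the left and Duloxetine minus Fluoxetine on the right, each score taken relative to the other drugs of the run, with intervals that exclude 0 in red. No interval of the left pair excludes 0, and 1 of the right pair does, the genes of other binding partners.

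Likeness within the class was low across run codes. Pearson's r between the deviations of 2 drugs from their runs, over 13023 genes, had a median of -0.131 in the 19 pairs of these drugs from different run codes, with 9 of 19 above 0. The r is a description over genes, which are not independent, and each drug shares its baseline with its run. It was highest for Escitalopram with Citalopram, at 0.538, and 85.7% of 560 pairs of other drugs from the same 2 run codes were lower, while 5 to 95% of those pairs spanned -0.678 to 0.674. It was lowest for Paroxetine with Duloxetine, at -0.557, and 9.13% of 504 pairs of other drugs from their 2 run codes were lower. Pairs of other drugs also centred near 0: taken for the run codes of each of the 19 pairs, their medians had a median of 0.007. Whether the class differs from them was not tested.

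Each drug was also compared with the 187 to 198 drugs of the series in other run codes, far more than the other members of the class, so the highest r among them cannot be set against the class. Among them Duloxetine was most alike to Trihexyphenidyl·HCl, a muscarinic antagonist (r = 0.903), Ursodiol, a bile acid (0.890), Naloxone·HCl, an opioid antagonist (0.884), and Propranolol·HCl, a beta blocker (0.882). Fluoxetine was most alike to Propranolol·HCl (0.797) and the tricyclic Nortriptyline·HCl (0.763). Escitalopram was closest to Buspirone·HCl, a Htr1a agonist (0.591), Citalopram to Losartan Potassium (0.647), Paroxetine to Ropinirole·HCl (0.601), Fluvoxamine to Repaglinide (0.428) and Sertraline to CP-448187 (0.548). These r values were taken over the same 13023 genes and carry no test.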

How the data were processed

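Per the labels' protocols, libraries were made with a stranded mRNA kit. Build mm10 and the tools edgeR 3.10.5, limma, STAR 2.4.0 and Subread 1.4.6 stand in the submitters' processing notes, without their roles, and the strand setting of the counting is not given in the sources used here. The authors deposited raw counts for 31689 genes, in whole numbers and not normalized. Deposited RPKM values were not used.

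Counts were tested in R 4.3.3 with edgeR 4.0.16 (TMM factors, default filter on low counts, quasi-likelihood F tests, Benjamini-Hochberg adjusted p under 0.05 over all genes tested). Fits within runs used the 139 libraries of the 5 run codes with a term for run code. DESeq2 1.42.0 and limma 3.58.1 were alternatives. A library without replicate is assumed to vary like the others in its fit. Errors of log2 differences are SEs. Locations are from GENCODE on GRCm38. The tests were checked on simulated counts.

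The members, the 26 gene lists (308 genes) and the comparisons were chosen with earlier results of these data known. Named genes were, for the 7 drugs, up to 5 per direction with the lowest p, a mean CPM of at least 1 and values to one side of the comparison mean in each drug. For 1 drug they were 2 per direction. When enough genes passed, the largest changes past the threshold were taken, up to 12 per direction for groups. The 3 list genes with the lowest p were also named. The text gives a part of these. Other list members were described after their values were seen.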

Additional observations from a re-analysis of the deposited data

Results flagged for a closer look

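Among 330 groups of values tested for a sample far from the others, 19 were singled out, and chance alone gives about 1 in 20. Several of these genes were named because 1 drug was extreme in them, so the flag adds nothing independent. Sertraline was far above the other 6 drugs for Fos (136.9 CPM), Arc (111.0 CPM), Egr1 (251.0 CPM), Npas4 (167.4 CPM) and Ier2 (16.4 CPM). Fluoxetine was for Sipa1l2 (167.8 CPM), Igf1 (75.2 CPM), Wif1 (7.63 CPM) and Fam43a (10.96 CPM), and Duloxetine for Rhbdl3 (28.8 CPM) and Ptma (25.2 CPM). Paroxetine stood apart for Tal1 (4.70 CPM) and Zfp786 (6.445 CPM), Fluvoxamine for Fam72a (2.37 CPM) and Citalopram for Gm26582 (1.88 CPM). Among the vehicles, Vehicle 1 was highest for the NF-kB inflammation score (0.992) and the microglial gene Csf1r (4.44 CPM), Vehicle 2 for Igf1 (77.7 CPM), and Vehicle 6 was lowest for Fam72a (1.05 CPM).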

How the results depend on the processing

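The 7 drugs together kept 0 calls against vehicle and against other drugs of the run under RLE factors, no filter on low counts, limma voom, DESeq2 and each left-out library. In edgeR the genes at an unadjusted p under 0.05 ranged, without 1 drug, between 179 (without Duloxetine) and 917 (without Paroxetine) against vehicle and between 240 and 1656 (the same 2 drugs) against the run. Without 1 vehicle they ranged between 220 and 902. Without Fluoxetine and Duloxetine they were 145 against vehicle and 181 against the run, where 0 genes were called. A block for run code over 5 drugs and 7 vehicles called 0 (514 unadjusted). Run code HI.3083 alone gave 1 call against vehicle, and run code HI.3139 alone gave the 1167 calls of Fluoxetine with Duloxetine.

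That count was 1133 with RLE factors, 213 with no filter on low counts (Htr1a and Htr5a among them), 1758 in limma voom, 2558 in DESeq2, 1897 with the spread of all 5 run codes, and 0 to 0 without either drug. The cause of these differences was not tested, and the fits without a drug have 1 library against 18. DESeq2 called 1 gene for Escitalopram, 3 for Duloxetine and 1 for Sertraline against vehicle, and limma voom 4 for Duloxetine within its run (Phf21b, Olfml3, P2ry14 and Mfsd7a). The mean fatty acid synthesis score of the 7 drugs was -0.000421 relative to the run medians. The directions that turned were Htr2c without Fluoxetine and Duloxetine (0.0243) and Arc without Sertraline (-0.131, and up to 0.557 without another library), both against vehicle, and Htr2a of the pair without Duloxetine (0.189, and -0.393 without Fluoxetine). No paired analysis was possible because drugs and vehicles share no replicate that pairs them, and run code served as the block.

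The number of libraries, 1 for each drug, limits every comparison. Depth was 28950888 counts or more, and genes such as Slc6a4, Mmp13 and Csf1r still rested on few counts. Doses are not in the sources used here, and run code HI.3139 held no vehicle.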
